A study of Caenorhabditis elegans with 2 samples.

Results

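The genes described here are the 162 snoRNA genes of Caenorhabditis elegans that have no host gene on their own strand, out of 344 annotated snoRNA genes and 46890 annotated nuclear genes of any kind. They were taken from the Ensembl annotation of the WBcel235 assembly (the sequence of ce11) as every gene of the snoRNA class, apart from 2 genes with smy- names, whose span did not lie wholly inside a protein-coding gene on the same strand. Of the 162 genes, 38 overlapped a protein-coding gene on the opposite strand (antisense; 33 of them wholly inside it), 123 overlapped no protein-coding gene (intergenic), and 1 overlapped one on its own strand in part and is counted in neither class. The other 182 snoRNA genes lay inside a same-strand host gene. Binding was mapped by chromatin immunoprecipitation and sequencing (ChIP-seq) in whole larvae of the L4 stage, the last before adulthood, of mixed sex and of strain OP179, which carries the integrated transgene wgIs179 with eGFP-tagged snpc-4 and the unc-119(ed3) mutation. The 2 biological replicates form 1 group; no input or untagged sample was analysed here, so there is no measured background. The tagged protein came from a transgene, and whole animals were used, so binding in single tissues cannot be told apart. Peak lists hold no read counts, so the depth of each library is unknown, and the intervals given below cover only the counting of genes, which are not replicates.

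SNPC-4 is related to the largest subunit of SNAPc, the activating complex of small nuclear RNA genes. SNAPc binds the proximal sequence element upstream of those genes and helps RNA polymerase II or III to start there. snoRNAs are short nucleolar RNAs that guide chemical modification of ribosomal RNA; many are cut out of the introns of a host transcript, while a snoRNA gene outside such an intron usually has a promoter of its own. Genes transcribed by RNA polymerase III may instead carry promoter boxes inside the transcribed part, the A box and B box of tRNA genes.

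Of the 162 genes, 28 had a peak summit within 300 bp of the 5′ end in the authors' optimal list of 381 peaks, made from both replicates with an irreproducible discovery rate (IDR) threshold. Many of those 28 share short upstream sequences, so the 100 bases before and the first 10 bases of the annotated gene are shown for 8 of the 12 genes of highest signal, and for 3 further genes and 1 neighbour chosen after their values were seen. The sequences were read 5′ to 3′ on the strand of each gene from the RefSeq copy of the ce11 genome. Capitals in the first 8 mark the pieces AACNCG and TGTC where they stand 5 bases apart, called the paired element below. It resembles a SNAPc proximal sequence element, and its pattern was written after the upstream sequences of these genes had been read. The windows were chrII:15025884-15025993 (minus strand) for Y53F4B.47, chrIV:867124-867233 (minus strand) for Y55F3BR.9, chrIV:8428730-8428839 (minus strand) for T26A8.6 and chrII:5701562-5701671 (plus strand) for C18A3.12. The next 4 were chrII:11167117-11167226 (plus strand) for K07C10.2, chrIII:9717280-9717389 (plus strand) for C07A9.14, chrV:8247952-8248061 (minus strand) for C16D9.10 and chrIV:14327112-14327221 (minus strand) for Y67A10A.14.
Y53F4B.47: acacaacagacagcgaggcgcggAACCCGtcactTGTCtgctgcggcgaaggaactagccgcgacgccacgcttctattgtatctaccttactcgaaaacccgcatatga
Y55F3BR.9: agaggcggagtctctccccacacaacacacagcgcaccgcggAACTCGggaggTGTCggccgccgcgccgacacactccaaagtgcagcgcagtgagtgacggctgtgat
T26A8.6: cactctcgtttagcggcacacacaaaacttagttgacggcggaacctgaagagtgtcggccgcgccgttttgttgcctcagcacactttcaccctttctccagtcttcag
C18A3.12: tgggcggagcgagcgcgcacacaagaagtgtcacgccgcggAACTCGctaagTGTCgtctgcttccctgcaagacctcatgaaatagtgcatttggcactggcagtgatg
K07C10.2: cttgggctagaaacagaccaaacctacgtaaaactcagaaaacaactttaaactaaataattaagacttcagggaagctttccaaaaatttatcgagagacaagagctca
C07A9.14: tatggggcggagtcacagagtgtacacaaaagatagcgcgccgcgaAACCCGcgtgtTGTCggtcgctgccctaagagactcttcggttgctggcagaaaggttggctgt
C16D9.10: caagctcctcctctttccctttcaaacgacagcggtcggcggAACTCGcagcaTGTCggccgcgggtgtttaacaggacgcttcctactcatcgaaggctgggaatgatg
Y67A10A.14: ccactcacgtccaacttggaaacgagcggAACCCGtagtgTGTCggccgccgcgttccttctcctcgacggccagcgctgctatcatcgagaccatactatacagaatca
Of these 8, 6 carried the element. K07C10.2 did not, and T26A8.6 had AACCTG in place of AACNCG, 5 bases before TGTC, and was counted as without it. The other 4 of the 12, F59C6.15, Y74C9A.6, F47G4.9 and F25H2.15, each carried it and are not shown. K07C10.2 shares its peak with K07C10.6, an ncRNA gene on the opposite strand, and the window of that neighbour, chrII:11167295-11167404 (minus strand), holds the element.
K07C10.6: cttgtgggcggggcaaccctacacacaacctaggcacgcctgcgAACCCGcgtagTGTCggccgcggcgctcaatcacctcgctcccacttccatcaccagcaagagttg
WBGene00220222, in the window chrIV:15649351-15649460 (minus strand), carried the element without a peak in the optimal list. T06C12.16, in chrV:15873917-15874026 (minus strand), and C41C4.11, in chrII:8107261-8107370 (minus strand), had weak peaks and a different pattern, with capitals on TGGCNNA and GTTCNA, which resemble the A and B boxes of tRNA genes.
WBGene00220222: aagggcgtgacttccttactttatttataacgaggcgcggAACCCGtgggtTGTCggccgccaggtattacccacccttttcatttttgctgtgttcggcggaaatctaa
T06C12.16: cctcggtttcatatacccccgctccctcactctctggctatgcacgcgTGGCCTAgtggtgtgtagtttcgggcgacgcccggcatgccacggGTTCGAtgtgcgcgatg
C41C4.11: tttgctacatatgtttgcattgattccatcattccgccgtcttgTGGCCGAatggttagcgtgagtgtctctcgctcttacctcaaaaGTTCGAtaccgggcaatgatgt

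A summit stood near the 5′ end of 17.3% of the snoRNA genes without a same-strand host (28 of 162; Clopper-Pearson 95% interval 11.8 to 24.0), against 6.04% of the hosted ones (11 of 182; 3.06 to 10.6) and 0.874% of all annotated nuclear genes. The share was 11.2 percentage points higher than among hosted snoRNA genes (Newcombe 95% interval 4.51 to 18.3). The shares of antisense and intergenic genes lay close together, with wide intervals. The share was 18.4% of antisense genes (7 of 38; 7.74 to 34.3) and 17.1% of intergenic genes (21 of 123; 10.9 to 24.9). Antisense exceeded intergenic genes by 1.35 percentage points, with a 95% interval of -10.6 to 17.4 that holds differences of either sign. Chromosome X held no antisense gene but 23 intergenic ones, of which 1 had a peak, and this lowers the intergenic share. The classes were not compared on the other chromosomes alone, so the small difference cannot be separated from this uneven spread.

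With equal numbers of peaks, the antisense share was again the higher one in each replicate. The optimal list was made from these same replicates, so they are not a separate repeat of it. Among the 381 strongest peaks of replicate 1, a summit stood near 7 of 38 antisense and 17 of 123 intergenic genes (18.4% and 13.8%), where the share over all genes was 0.938%. Among the 381 strongest of replicate 2, it stood near 9 of 38 antisense and 20 of 123 intergenic genes (23.7% and 16.3%), with 0.825% of all genes. The differences were 4.60 points (-7.08 to 20.4) and 7.42 points (-5.65 to 23.9), and both intervals include 0.

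The full lists, which the authors deposited as peaks together with background and which have no stated threshold, hold far more summits and raise every share. In the pooled list of 30000 peaks, a summit stood near 23 of 38 antisense genes (60.5%; 43.4 to 76.0) and 64 of 123 intergenic genes (52.0%; 42.8 to 61.1), against 23.7% of all genes. In the 11042 peaks of replicate 1 it stood near 13 antisense (34.2%) and 46 intergenic genes (37.4%), against 13.6% of all genes. In the 30000 peaks of replicate 2 it stood near 23 antisense (60.5%) and 60 intergenic genes (48.8%), against 20.1% of all genes. Antisense minus intergenic was 8.49 points (-9.52 to 24.9) in the pooled list, -3.19 points (-18.9 to 14.6) in replicate 1 and 11.7 points (-6.32 to 28.1) in replicate 2. None of these 3 intervals excluded 0. Hosted snoRNA genes had a summit at 80 of 182 (44.0%) in the pooled list, 35 (19.2%) in replicate 1 and 67 (36.8%) in replicate 2. All 162 genes minus hosted ones was 9.75 points in the pooled list, with an interval of -0.82 to 20.02 that includes 0. It was 17.2 points (7.73 to 26.4) in replicate 1 and 14.4 points (3.92 to 24.5) in replicate 2. A further 59 of the 162 genes had a summit in the pooled list but not in the optimal one, and 64 had none within 300 bp in any list.

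**Figure D1:**
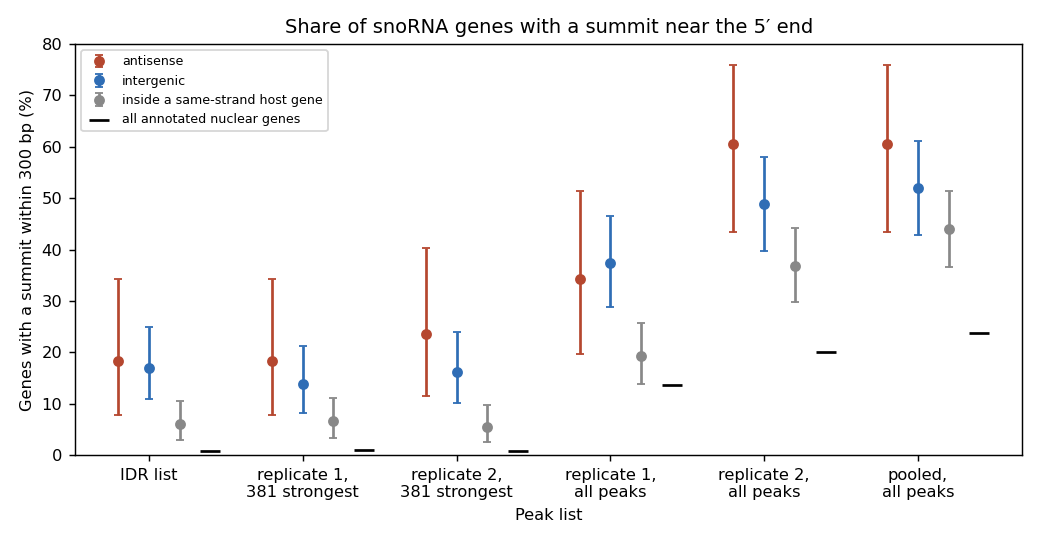
Share of genes (percent, y axis) with a summit within 300 bp of the 5′ end in each peak list (x axis), for antisense (red), intergenic (blue) and hosted (grey) snoRNA genes with Clopper-Pearson 95% intervals, and for all annotated nuclear genes (black dashes). In the optimal IDR list antisense genes stood at 18.4% and intergenic genes at 17.1% with overlapping intervals, both above the 6.04% of hosted genes and the 0.874% of all genes.

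The peaks at these 28 genes ranked high in the optimal list. Their median signal was 155 on the authors' scale, which is not stated, where the median of the list was 31.7 and its range 21.4 to 1230. Of the 28, 18 were among the 100 strongest peaks, 2 among the 20 strongest and 5 among the 50 weakest. The median rank percentile was 84.6 for all 28, 82.8 for the 7 antisense and 87.3 for the 21 intergenic genes. The median signal was 106 (22.2 to 491) at antisense genes and 188 (21.6 to 1230) at intergenic genes, so the intergenic range held the whole antisense range. The 11 hosted snoRNA genes with a peak had a median signal of 402.

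The strongest peak of the whole list lay at the intergenic gene Y53F4B.47 (WBGene00045141; chromosome II, 15025814 to 15025893). Its signal was 1230 in the pooled data, 579 in replicate 1 and 651 in replicate 2, and the summit stood 82 bp upstream of the 5′ end. The same summit stood 139 bp upstream of cmtr-1, an mRNA cap methyltransferase gene that runs the other way, so the peak lay between 2 divergent starts. Next came an antisense gene, Y55F3BR.9 (WBGene00023183; chromosome IV, 867056 to 867133), inside an intron of Y55F3BR.2. Its signal was 491 pooled, 223 in replicate 1 and 262 in replicate 2, with the summit 28 bp upstream.

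Of the next 3 genes, all intergenic and on chromosome I, F59C6.15 (WBGene00045164; 10516978 to 10517150) had a signal of 447 pooled, 185 in replicate 1 and 263 in replicate 2. Y74C9A.6 (WBGene00023193; 3747 to 3909) had 424 pooled, 215 in replicate 1 and 211 in replicate 2. F47G4.9 (WBGene00044975; 14058839 to 14058910) had 418 pooled, 240 in replicate 1 and 177 in replicate 2. The replicates thus ranked these genes differently: F59C6.15 was the highest of these 3 in replicate 2 and the lowest in replicate 1. Their summits stood 91, 22 and 31 bp upstream.

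T26A8.6 (WBGene00195245; chromosome IV, 8428614 to 8428739) and C18A3.12 (WBGene00044704; chromosome II, 5701662 to 5701726) came next among the intergenic genes. T26A8.6 had a signal of 406 pooled, 184 in replicate 1 and 218 in replicate 2, with the summit 67 bp upstream. C18A3.12 had 393 pooled, 206 in replicate 1 and 186 in replicate 2, with the summit 36 bp upstream. T26A8.6 was the strongest of the 28 genes without an exact match to the paired element. Its printed sequence holds AACCTG, which is 1 base off AACNCG, at the same spacing before TGTC. F25H2.15 (WBGene00045162; chromosome I, 10565266 to 10565443) had 274 pooled, 120 in replicate 1 and 156 in replicate 2, and was the 1 gene with more than 1 summit within 300 bp, the nearer one 51 bp upstream.

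K07C10.2 (WBGene00014425; chromosome II, 11167217 to 11167303) was unlike the rest. Its signal was 266 pooled, 131 in replicate 1 and 137 in replicate 2, but the summit stood 134 bp downstream of its 5′ end, past the end of the gene. That summit stood 47 bp upstream of K07C10.6 (WBGene00197803; chromosome II, 11167189 to 11167304), an ncRNA gene on the opposite strand that spans K07C10.2, and the paired element began 56 bp upstream of K07C10.6. No other of the 28 genes had its summit more than 12 bp downstream.

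C07A9.14 (WBGene00045124; chromosome III, 9717380 to 9717458), in an intron of the sodium/calcium exchanger family gene ncx-7 and antisense to it, had a signal of 266 pooled, 104 in replicate 1 and 163 in replicate 2. The intergenic gene C16D9.10 (WBGene00022932; chromosome V, 8247888 to 8247961) had 258 pooled, 90.6 in replicate 1 and 169 in replicate 2. Y67A10A.14 (WBGene00045163; chromosome IV, 14326948 to 14327121), also intergenic, had 188 pooled, 62.8 in replicate 1 and 125 in replicate 2. All 3 were higher in replicate 2 than in replicate 1. Their summits stood 33, 33 and 71 bp upstream, and the summit of Y67A10A.14 was within 300 bp of 2 piRNA genes, 21ur-7591 and 21ur-10179.

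The other 16 genes ran down to the floor of the list. The antisense ones were K02C4.7 (in ltd-1, a LIM domain protein gene; pooled signal 141), C05H8.3 (in ckk-1, a calmodulin-dependent kinase kinase gene; 106), WBGene00220205 (in pkd-2, a polycystin gene of male sensory neurons; 52.1), ZK185.9 (in ZK185.2; 45.0) and T02E1.9 (overlapping spe-12, a sperm activation gene; 22.2). The intergenic ones were T08B6.64 (188), M163.14 (170), F43A11.8 (98.2), M03D4.78 (72.5), W03B1.17 (37.6), C17H12.36 (34.1), F09G2.14 (24.7), K02C4.8 (22.4), Y53F4B.48 (22.3), T06C12.16 (22.3) and C41C4.11 (21.6). T08B6.64 and M163.14 were thus still far above the median of the list, while the last 6 of all 28 lay below it. Just below the floor of 21.4 were F37F2.4 (pooled signal 21.2; 5.30 in replicate 1 and 13.6 in replicate 2), T03F7.8 (21.2; no summit in replicate 1 and 19.4 in replicate 2) and D2021.6 (20.3; 5.75 and 10.5 in replicates 1 and 2). Then came W06H8.17 (18.6; 10.8 in replicate 1 and 8.77 in replicate 2) and T21F2.3 (18.5; 3.55 in replicate 1 and 15.2 in replicate 2). F37F2.4 and T03F7.8 (21.2) were therefore about equal in pooled signal to the weakest gene inside the list, C41C4.11 (21.6). D2021.6 lay a little lower, and W06H8.17 and T21F2.3 lay clearly below the floor.

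**Figure D2:**
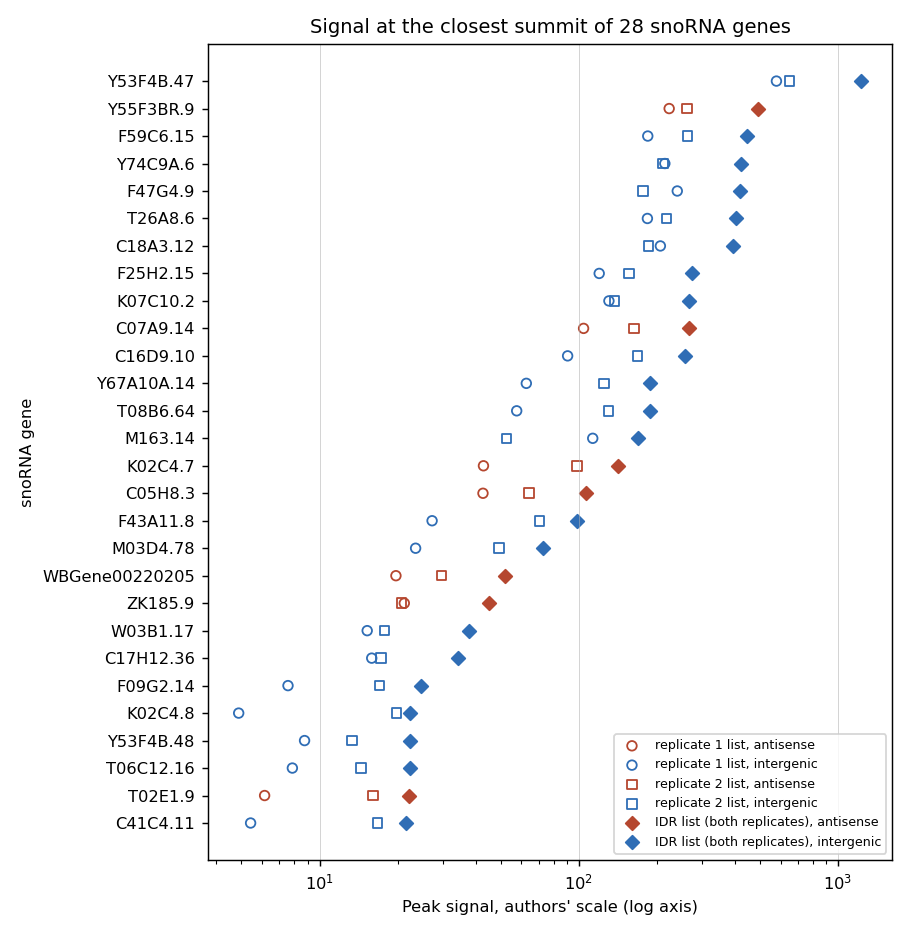
Peak signal on the authors' scale (x axis, log) at the closest summit of each of the 28 snoRNA genes (y axis), in the optimal IDR list (filled diamonds), the replicate 1 list (circles) and the replicate 2 list (squares), with antisense genes in red and intergenic genes in blue. Antisense genes lie between 22.2 and 491 and intergenic genes between 21.6 and 1230 in the optimal list, and 23 of the 28 genes lie higher in replicate 2 than in replicate 1.

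All 28 genes had a summit in each replicate list, and for 24 of them the 2 replicate summits were within 50 bp of each other. The optimal list was made from both replicates with an IDR threshold, so these genes were chosen in part for agreement between the replicates. The same holds for the agreement of ranks given below. Among the 381 strongest peaks, 22 of the 28 were found in replicate 1, 26 in replicate 2 and 22 in both. The signals of the 28 genes ranked nearly alike in the replicates (Spearman's rho 0.94 over 28 genes of the same 2 libraries, given as a description). The ratio of replicate 2 to replicate 1 had a median of 1.50, and the signals of the 2 lists are not known to be on 1 scale. The −log10 of the q-value was at the highest value of its list for all 28 genes, 3.72 in replicate 1 and 3.13 in replicate 2, so it gives no order among them.

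Summits lay just upstream of the annotated genes. Of the 28, 25 stood between 100 bp and 1 bp upstream, 1 stood 130 bp upstream (F09G2.14) and 2 stood downstream (W03B1.17 by 12 bp and K07C10.2 by 134 bp). The median position was -38.5 bp for all 28 genes, -28 bp for antisense genes (-49 to -20) and -50 bp for intergenic genes (-130 to 134). The antisense positions all fell inside the intergenic range. No summit was added or lost when the limit was set at 150 bp in place of 300 bp, and 2 further genes, both intergenic, had a summit within 1000 bp. The summit of 6 of the 7 antisense genes stood in an intron of the opposite-strand gene and none in an exon; that of T02E1.9 stood outside spe-12. The other 21 summits were outside protein-coding genes.

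**Figure D3:**
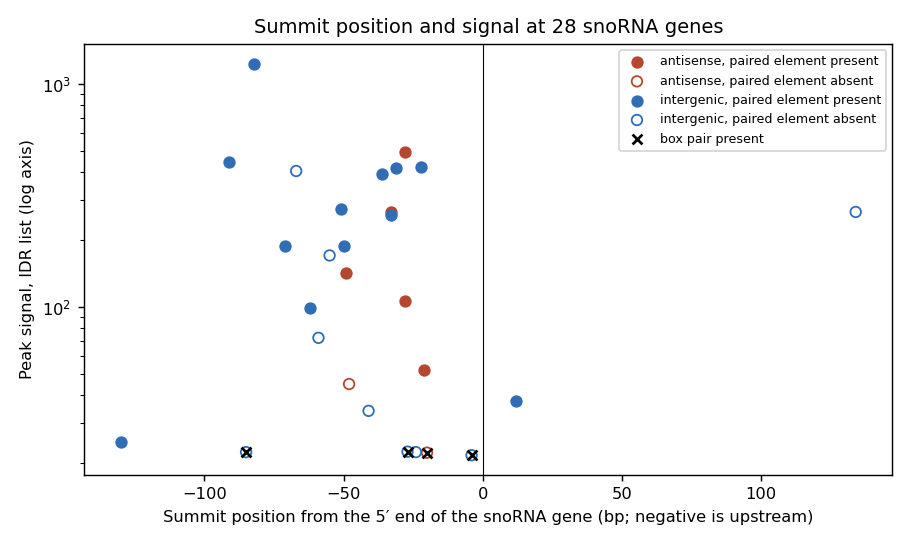
Position of the summit from the 5′ end of the gene in bp (x axis, negative is upstream) against the signal in the optimal IDR list (y axis, log) for the 28 snoRNA genes, antisense in red and intergenic in blue, filled where the paired element was present in the 100 bp upstream and crossed where the box pair was present. Antisense summits lie between -49 and -20 bp, the 4 genes with the box pair lie at the floor of the list, and K07C10.2 stands alone at 134 bp downstream.

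Other genes started near many of these summits. For 15 of the 28 genes the summit was near no other gene's 5′ end within 300 bp; for 4 it was also near that of a protein-coding gene, for 7 near that of an ncRNA gene and for 2 near piRNA genes, the short-RNA genes of the germline small RNA pathway. The 4 protein-coding genes were cmtr-1, zen-4 (a kinesin of the central spindle, with M03D4.78), F09G2.2 (with F09G2.14) and K02C4.2 (with K02C4.8), and the summit stood 139, 280, 206 and 278 bp upstream of their 5′ ends. In each case the snoRNA gene was the closer one. WBGene00220205 shared its summit with 4 piRNA genes, 1 of which, 21ur-1009, began within 1 bp of the snoRNA gene, with the summit 22 bp upstream of it and 21 bp upstream of WBGene00220205. Across all 28 genes, the gap to the nearest protein-coding gene had a median of 156.5 bp, counted as 0 where they overlap, against 540.5 bp at the 134 genes without a peak.

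The paired element, searched on both strands of the 100 bp before the 5′ end, was present at 17 of the 28 genes with a peak (60.7%; 40.6 to 78.5) and at 7 of the 134 without one (5.22%; 2.13 to 10.5). Over all annotated nuclear genes it was present at 0.262%, and over protein-coding genes at 0.0901%. It was found at 5 of 7 antisense and 12 of 21 intergenic genes with a peak. Hosted snoRNA genes had it at 10 of 11 with a peak and at 1 of 171 without. The pattern was chosen on sequences of the first set of genes, with earlier results of these data known, and the hosted genes have peaks in the same list. All these counts therefore describe the pattern and do not test it.

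Seen the other way, 17 of the 24 genes with the element had a peak (70.8%; 48.9 to 87.4), against 11 of 138 without it (7.97%; 4.05 to 13.8). The element began at a median of 60 bp upstream (77 to 54 bp) in the genes with a peak and read on the gene's own strand in 16 of 17; in F09G2.14 it read on the other. In the 5 antisense genes it began 59 to 54 bp upstream, and in the 12 intergenic genes 77 to 57 bp upstream. The median start was -58 bp in the antisense and -68 bp in the intergenic genes, and the ranges overlapped. Among the longer distances were those of Y53F4B.47 (77 bp), F43A11.8 (73 bp) and F59C6.15 (71 bp), all intergenic. F43A11.8 and F59C6.15, like Y67A10A.14 (71 bp) and F25H2.15 (67 bp), have further copies of their 5′ region in the genome. Whether these genes are copies of one another was not tested, so their starts may not be separate cases. The median signal was 258 (24.7 to 1230, n = 17) with the element and 34.1 (21.6 to 406, n = 11) without it, with overlapping ranges. Those 11 were 4 genes with the box pair described below (median 22.2) and 7 others (median 72.5), which include T26A8.6. The pattern was written after these sequences had been read, so the difference in signal is a description and no test.

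Shorter pieces were found at fewer of the genes with a peak than the paired element, and at more of all genes where they had 6 bases. TGTCGG, which overlaps the downstream piece of the element, was at 15 of 28 genes with a peak and 9 of 134 without (1.98% of all genes), and its longer form TGTCGGCC at 9 of 28 and 6 of 134 (0.128%). GGAACC, which overlaps the upstream piece, was at 9 of 28 and 9 of 134 (1.37%), and GCGGAACC at 8 of 28 and 6 of 134 (0.183%). TATAAA, the TATA box, was at 2 of 28 genes with a peak and 23 of 134 without, where 17.5% of all genes have it. Both strands were searched in each case. GCGGAACC and TGTCGGCC were first found on these same peaks, and GGAACC and TGTCGG are parts of them. The counts of these 4 motifs are therefore a description and no test.

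The 7 genes with the element but no peak in the optimal list carried it 61 to 58 bp upstream, where it also stands in many genes with a peak. Of these, 5 had a summit in the pooled list: T21F2.3 (18.5), WBGene00220222 (14.3), Y48A6C.10 (14.1), WBGene00220176 (8.69) and WBGene00220185 (6.41). K02F6.11 and W07G1.23 had none in any list. Of the 7, 4 had further copies of their 5′ region elsewhere in the genome at 90% identity or more over at least 80% of the length: WBGene00220222 (10 copies), WBGene00220176 (9), K02F6.11 (2) and Y48A6C.10 (1). The sources used here do not say how reads that map to several places were treated, and the part of such reads in these low values was not tested. Among all 162 genes, 12 had such copies, and 4 of these had a peak: F59C6.15, F25H2.15, Y67A10A.14 and F43A11.8, with 2 copies each.

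The 11 genes with a peak and no element included 4 with another pattern. K02C4.8, T06C12.16, T02E1.9 and C41C4.11 carried the box pair, which is TGGCNNA followed 25 to 60 bases on by GTTCNA, and had pooled signals of 21.6 to 22.4, all among the 50 weakest of the list. In replicate 1 they had 4.88 to 7.86 and in replicate 2 14.5 to 19.8, so replicate 2 was higher at each. The pair stood on the gene's own strand in 3 of the 4, beginning 64 to 52 bp upstream of the annotated 5′ end, as in the printed sequences of T06C12.16 and C41C4.11; at K02C4.8 it read on the opposite strand. No annotated tRNA gene lay within 300 bp of the 5′ end of any of the 162 genes. The pair was also at 11 of the 134 genes without a peak, 9 of which had a summit in the pooled list (6.19 to 21.2), and at 0.369% of all genes.

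The 7 with no exact match to either pattern were T26A8.6, K07C10.2, M163.14, M03D4.78, ZK185.9, C17H12.36 and Y53F4B.48, with signals of 22.3 to 406. T26A8.6 was 1 base off the paired element, and both it and ZK185.9 held TGTCGGCC. K07C10.2 is the gene whose summit lay at the start of K07C10.6. M163.14 (WBGene00045158, chromosome X, 14478464 to 14478527) was the strongest of these 7 after T26A8.6 and K07C10.2. It had a signal of 170 pooled, 113 in replicate 1 and 52.7 in replicate 2, with the summit 55 bp upstream. It was the only gene on chromosome X with a peak, out of 23.

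**Figure D4:**
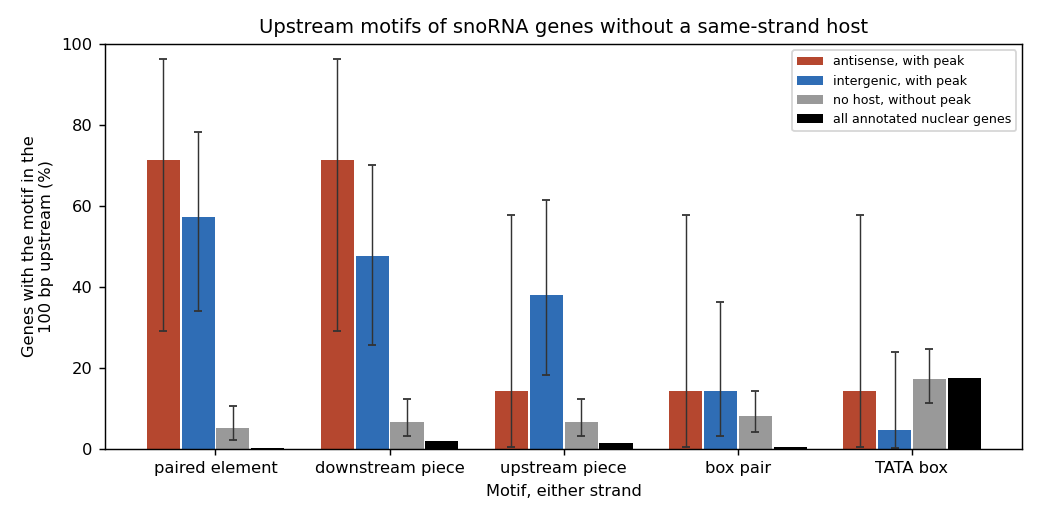
Share of genes (percent, y axis) with each motif on either strand of the 100 bp upstream (x axis), for antisense and intergenic genes with a peak (7 and 21 genes), for the 134 without a peak and for all annotated nuclear genes; bars start at 0, and lines are Clopper-Pearson 95% intervals. The downstream and upstream pieces are TGTCGG and GGAACC and the TATA box is TATAAA; the paired element was at 17 of the 28 genes with a peak, 7 of 134 without and 0.262% of all genes.

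Some other properties also differed between genes with and without a peak. The 100 bp upstream had a median GC content of 56% at the 28 genes with a peak and 45% at the 134 without. These bases include the patterns themselves. Among the 134 genes the median was 50% with the paired element, 53% with the box pair and 42.5% with neither. At the 28 genes it was 57%, 52% and 54% in the same order. Among genes of up to 100 bp, 12 of 44 had a peak (27.3%), against 13 of 97 of 101 to 200 bp (13.4%) and 3 of 21 longer ones (14.3%). By chromosome, peaks were found at 5 of 38 genes on I, 7 of 36 on II, 2 of 16 on III, 9 of 31 on IV, 4 of 18 on V and 1 of 23 on X. The counts are small and the intervals on these shares overlap.

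The share with a peak also differed by gene identifier, a split chosen after the values were seen. Of 51 genes with lower WormBase identifiers (up to the series WBGene00077), 20 had a peak (39.2%; 25.8 to 53.9), against 8 of 111 (7.21%; 3.16 to 13.7) with higher ones (from WBGene00195), and the intervals did not overlap. The median signal was 223 at the 20 genes and 48.5 at the 8. The annotation does not say how each gene was found, so the part that the source of the annotation plays in these shares was not tested.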

How the data were processed

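ChIP-seq was measured in 2 samples of 1 group. Each list is in the 10-column narrowPeak format on ce11; the ce10 lists were not used. Each peak was used with 3 values as the authors deposited them, namely a signal, the q-value as its −log10 and the position of the summit. Per the deposited file records, each list was made from alignments and a further file of unstated content. The sources used here do not give the peak caller, IDR threshold, signal scale or read depth. Ranks were therefore taken within a list. Signals of the 2 replicates are set side by side as a description only, since they are not known to be on 1 scale. All 381 optimal peaks are the 381 strongest of the pooled list. In 76.9% of them, and in over 99.4% of the peaks of every other list, the summit is the peak's centre.

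Genes came from Ensembl release 115 and the sequence from RefSeq; all 162 genes matched RefSeq by WormBase identifier. A gene had a peak if a summit lay within 300 bp of its 5′ end, the closest being used; summits shared with other genes were kept. Shares have Clopper-Pearson and differences Newcombe 95% intervals. Copies were sought with blastn 2.17.0 in 300 bp at the 5′ end. The counting was tested on simulated data. Python 3.11.15, pandas 2.3.3, scipy 1.17.1 and statsmodels 0.14.6 were used. With 1 group there was no test over samples.

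Every gene with a peak is named, by its WormBase identifier where its sequence name ends in a long number; the 12 of highest signal and the 5 just below the floor have values for each list. Genes, lists and motifs were chosen with earlier results of these data known. The paired element, the box pair and the split by identifier were chosen after seeing the data. Alternatives were 150 and 1000 bp, equal numbers of peaks from each replicate alone, the upper 50% of peaks, peak overlap, the closest 5′ end only, other definitions of antisense, counting neighbouring genes once, other motif windows and 1 mismatch.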

Additional observations from a re-analysis of the deposited data

How the results depend on the processing

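The number of genes with a peak was 28, and it ranged from 22 to 30 over the alternatives; with the 381 strongest peaks of 1 replicate alone it was 24 to 29. The antisense share was 15.8% to 23.7% and the intergenic share 13.0% to 18.7%. Over 10 alternatives antisense minus intergenic was -0.28 to 7.42 points, each 95% interval held 0, and the value was negative with summits counted within 1000 bp; the full lists, given above, ran from -3.19 to 11.7 points. Of 65 recomputed values, 54 stayed within a set limit and 11 did not. For shares and their differences the limit was the main interval. For the median position and rank it was the standard deviation between the replicates. For the number of genes it was a fixed, wide range around 28, not the spread between replicates. The median summit position was -44.5 bp both with 1000 bp and with the upper 50% of peaks, and -50.5 to -44 bp with 1 replicate alone, against -38.5 bp. The median rank percentile was 77.1 among the upper 50% of peaks, against 84.6. With 1 mismatch allowed, the shares of genes with a peak that hold a motif were 57.1% for GCGGAACC, 82.1% for GGAACC, 53.6% for TGTCGGCC, 82.1% for TGTCGG and 32.1% for TATAAA. Such loose matches to short motifs also arise in unrelated sequence. Their shares among genes without a peak or all genes were not computed, so these values show no difference between sets. Within 50 bp of the summit the TATA box was at 0% of genes, which for 0 of 28 allows up to 12.3% (Clopper-Pearson). The paired element was at 64.3% with 4 to 6 bases between its pieces or within 100 bp of the summit, both tried after seeing the data. No paired analysis was possible because the series has 1 group. Depth, unknown here, limits what can be said of the 134 genes without a peak.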
